A study of Mus musculus with 62 samples.

Results

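The brown adipocyte transcription factors described here are 10 listed regulators of brown fat identity and mitochondrial biogenesis: Prdm16, Ebf2, Ppargc1a, Ppargc1b, Pparg, Ppara, Esrra, Esrrg, Zic1 and Lhx8. They are a list of names, and all 10 were found among 47643 gene symbols and passed the filter on low values that left 12581 tested genes. RNA of whole brown adipose tissue was sequenced in 62 libraries of female mice whose age is given as 2 months. Whether that is the age at injection or at sampling cannot be told here. If it is the age at injection, comparisons of weeks within an arm are also comparisons of age. The CAC arm had received melanoma cells described as cachectic, meaning that they cause a wasting syndrome in which fat and muscle are lost. The NCAC arm had received melanoma cells described as non-cachectic, and the Con arm was mock injected. Each arm was sampled 2, 4, 6 and 8 weeks after injection, with 5 biological replicates per group and 7 for CAC at 8 weeks. The sample labels give the strain as C57BL/6J, whereas the series text names nude mice, which lack mature T cells. All 3 arms share that host, whichever it was.

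Brown adipocytes burn fuel in densely packed mitochondria, and UCP1 lets them release the energy as heat. EBF2 and PRDM16 are known to set the brown adipocyte programme during differentiation, PPARG is the nuclear receptor without which adipocytes do not form, and PPARA is the related receptor for fatty acids that drives genes of fat oxidation. PGC-1α (Ppargc1a) and PGC-1β (Ppargc1b) are coactivators that bind such receptors and the estrogen-related receptors ERRα (Esrra) and ERRγ (Esrrg), and raise the transcription of mitochondrial genes. ZIC1 and LHX8 are transcription factors used as markers of the classical brown fat depots.

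The authors deposited TPM (transcripts per 1000000), which are scaled for transcript length and for the library total, so levels of different genes can be set side by side. How deeply each library was sequenced cannot be read from TPM, and counting intervals are therefore not given. Transcripts of the mitochondrial genome filled a large part of each total in amounts that varied with the arm. In CAC at 8 weeks it averaged 50.8% with an SD of 3.67, against 59.8% (SD 2.33) in NCAC and 62.8% (SD 2.33) in Con, over 7, 5 and 5 libraries. CAC was below each of the other arms (exact permutation test, two-sided, p = 0.00253 and BH-adjusted p = 0.0152 for both). On that fixed total the median of all tested genes was 0.28 higher in CAC than in Con on the log2 scale and 0.21 higher than in NCAC, so a second scale is used beside the deposited one. On it, called rescaled here, the median-of-ratios method sets each library's typical gene to the same level. Con libraries 3 and 4 of 4 weeks stood apart, with shares from 39.6% to 39.7% against 57.1% to 58.7% in the other 3. The tissue matched its label: Ucp1 was between 1640 and 9679 TPM and Cidea between 1362 and 2706 TPM. The 7 genes listed as brown adipocyte markers were Ucp1, Cidea, Cox7a1, Cox8b, Kcnk3, Adipoq and Plin1. All of them were detected in every library. The summed skeletal muscle markers ranged from 70.3 to 17448 TPM, with all 11 of them detected in every library. In bulk tissue, fewer brown adipocytes and less RNA per brown adipocyte cannot be told apart.

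The promoters are shown for Ppara and Pparg, members called between arms at 8 weeks as deposited that had a match to a searched motif. That of Ppargc1a, the member with the widest spread, is shown too. Each is a RefSeq window on GRCm38.p6 (mm10) from 250 bases before to 50 bases after an annotated start, written 5′ to 3′ along the gene. Capitals mark matches to the motifs searched. The Ppara window lies at chr15:85735526-85735825 on the plus strand, the Pparg windows at chr6:115360894-115361193 and chr6:115362099-115362398 on the plus strand, and the Ppargc1a window at chr5:51567676-51567975 on the minus strand.
Ppara: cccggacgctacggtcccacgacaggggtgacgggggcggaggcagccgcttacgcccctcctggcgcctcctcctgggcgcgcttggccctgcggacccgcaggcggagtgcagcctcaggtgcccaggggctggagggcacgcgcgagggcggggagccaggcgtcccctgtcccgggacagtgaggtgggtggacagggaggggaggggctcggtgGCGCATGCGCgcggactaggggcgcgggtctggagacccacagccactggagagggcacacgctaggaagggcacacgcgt
Pparg, first start: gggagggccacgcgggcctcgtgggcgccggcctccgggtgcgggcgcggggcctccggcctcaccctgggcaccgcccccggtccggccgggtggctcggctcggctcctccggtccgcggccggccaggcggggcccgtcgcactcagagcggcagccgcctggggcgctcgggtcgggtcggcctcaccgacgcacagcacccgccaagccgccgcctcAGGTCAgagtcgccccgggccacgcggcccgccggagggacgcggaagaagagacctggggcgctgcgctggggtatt
Pparg, second start: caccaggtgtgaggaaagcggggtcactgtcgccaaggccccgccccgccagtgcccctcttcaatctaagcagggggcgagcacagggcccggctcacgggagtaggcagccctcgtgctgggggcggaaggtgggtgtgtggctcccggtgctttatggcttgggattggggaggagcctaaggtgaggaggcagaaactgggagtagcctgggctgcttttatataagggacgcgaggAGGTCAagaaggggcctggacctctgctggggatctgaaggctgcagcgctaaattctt
Ppargc1a: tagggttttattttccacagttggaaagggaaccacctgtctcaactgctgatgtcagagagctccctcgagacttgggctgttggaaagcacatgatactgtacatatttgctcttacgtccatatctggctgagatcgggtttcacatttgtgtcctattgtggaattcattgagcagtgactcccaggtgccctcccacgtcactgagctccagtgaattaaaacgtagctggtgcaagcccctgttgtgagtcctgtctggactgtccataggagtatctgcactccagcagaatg
On both strands, 5 motifs were searched in the 13 windows that the table holds for 8 of the members and in all 32851 promoters searched. The NRF-1 site GCGCATGCGC, bound by the nuclear respiratory factor that serves many mitochondrial genes, was found in the Ppara window and in no other member window, and 0.971% of all promoters hold it. It begins 31 bases before the annotated start. The nuclear receptor core element AGGTCA was found in 2 of the 13 member windows, and 16.3% of all promoters hold it. The windows with it are the Pparg windows shown, where it begins 28 and 9 bases before the starts. No member window held the cAMP response element TGACGTCA (1.79% of all promoters), the ERR response element TCAAGGTCA (0.423%, a motif that contains the core element) or the PPAR direct repeat AGGTCANAGGTCA (0.0396%, which also contains it). These are matches of letters in a window, and no binding was measured here. The Ppargc1a window lies at the upstream end of its gene, and starts without a window were not searched. A motif missing from these windows may therefore lie at another start. The third Pparg window, at chr6:115421816-115422115, held none of the 5 motifs and is not printed. Lhx8 was also called at 8 weeks as deposited, against Con, and its window likewise held none and is not printed. Ebf2 and Ppargc1b are named only.

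The levels of the 10 factors differed widely. Averaged over the 62 libraries, Pparg was highest at 115.5 TPM, and Esrra followed at 97.6 TPM. Ppara averaged 45.0 TPM, Ppargc1b 23.4 TPM, Ppargc1a 19.8 TPM and Ebf2 9.83 TPM. Esrrg averaged 7.28 TPM, Prdm16 4.93 TPM, Zic1 1.84 TPM and Lhx8 1.69 TPM. Pparg was thus above 95.3% of all tested genes in level and Lhx8 above 16.3%. The order was firm at some steps and loose at others. Esrra was above Ppara in 62 of 62 libraries, and Prdm16 was above Zic1 in 62 of 62. Ppargc1b was above Ppargc1a in only 41 libraries and in 8 of 12 group means, and Zic1 was above Lhx8 in 42 libraries and 8 of 12 group means, so these neighbours could not be ordered beyond their spread. Lhx8 reached 1 TPM in 60 libraries and each of the other 9 factors in all 62.

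**Figure D1:**
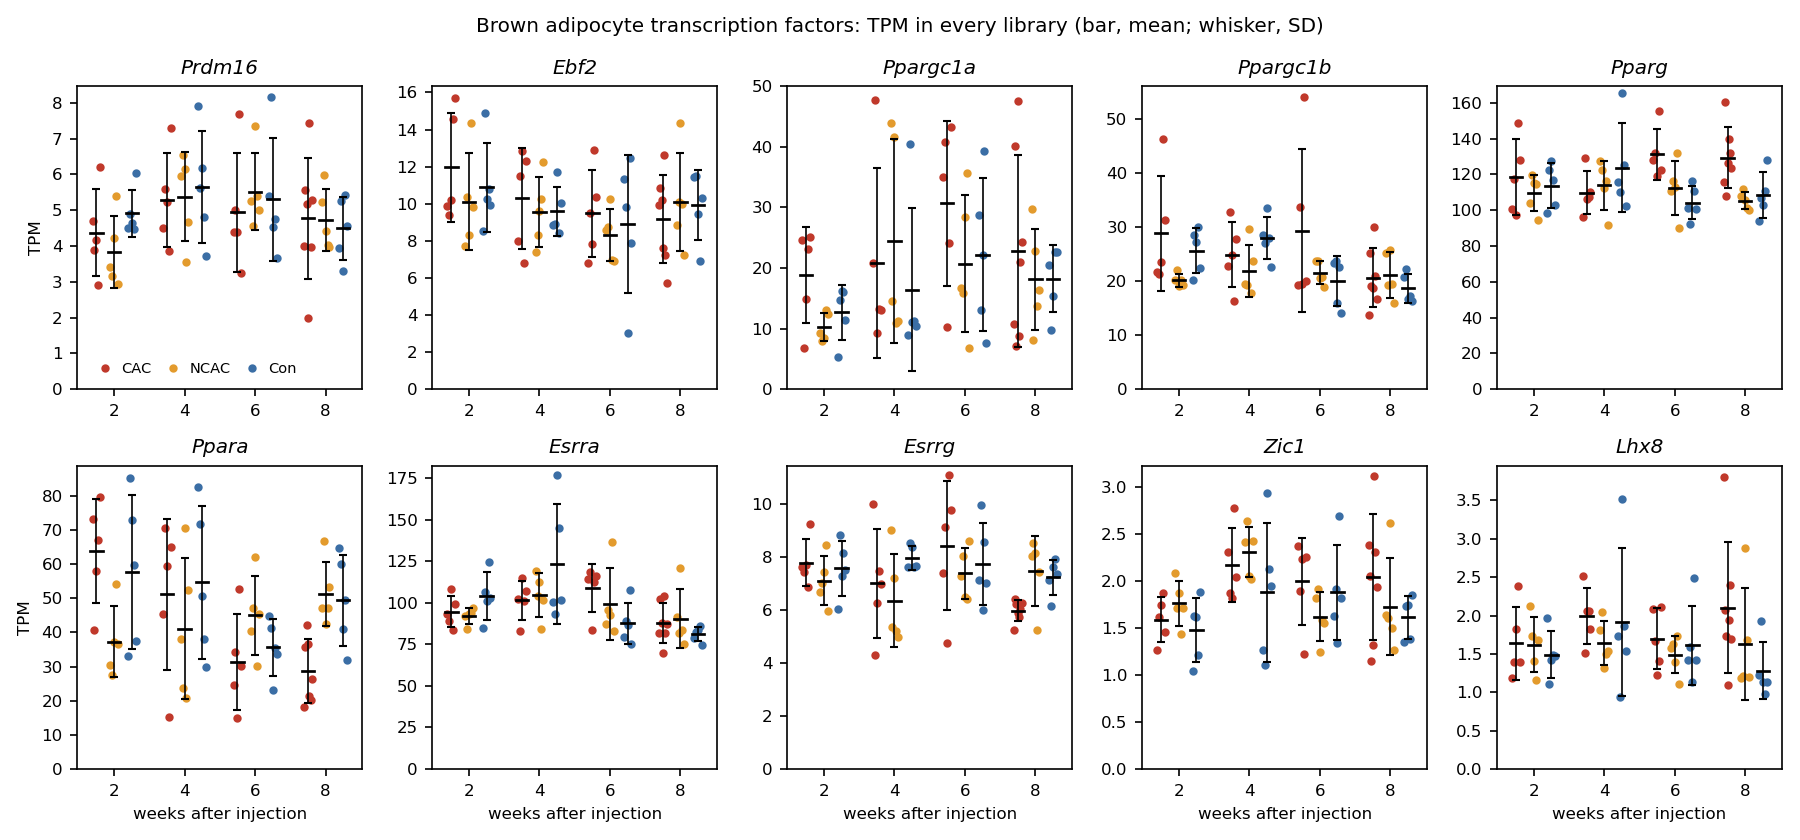
TPM of each of the 10 factors (vertical axes, starting at 0) in every library, by weeks after injection (horizontal axes), with CAC in red, NCAC in orange and Con in blue; the bar is the group mean and the whisker the SD (n = 5, or 7 for CAC at 8 weeks). Ppara in CAC at 8 weeks lies between 18.3 and 42.1 TPM, below all NCAC libraries of that week, and Ppargc1a spreads from 5.33 to 47.8 TPM with wide overlap of the arms.

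How much the factors varied between libraries of the same group differed widely. Ppargc1a had a within-group SD of 0.79 on the rescaled log2 scale, above that of 97.8% of all tested genes, and Ppara had 0.55, above 95.0%. Ebf2 (0.36), Ppargc1b (0.32) and Prdm16 (0.32) were above more than 80% of the genes, being at 86.5%, 83.1% and 82.3%. Pparg, in contrast, was among the steadier genes at 0.16, above 40.8%, with a median of 0.18 over all tested genes. With such a spread, 5 mice per group give Ppargc1a a wide error in every comparison.

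Between arms, factors were called only at 6 and 8 weeks on either scale, and only in CAC. A difference was called where limma's moderated test, fitted to all 62 libraries with Benjamini-Hochberg adjustment over all 12581 genes, gave an adjusted p under 0.05. Against Con, CAC had 0 of 10 factors called at 2 weeks, where 4.63% of all genes were called, and 0 of 10 at 4 weeks, where 3.85% were. At 6 weeks 1 of 10 was called in CAC against Con (21.7% of all genes), and none of them after rescaling (8.28% of all genes). At 8 weeks 3 of 10 were called on the deposited scale (54% of all genes), of which 2 were higher in CAC (52.1% of all genes) and 1 was lower (1.97%). After rescaling, 2 of 10 were called at 8 weeks (26.4% of all genes), 0 of them higher (13.5%) and 2 lower (12.8%). The direction of calls over all genes therefore depended on the scaling, and Ppara was the 1 factor of 10 called on both scales in this comparison. No factor had ranges that did not overlap between CAC and Con at 8 weeks, as held for 15% of all genes.

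In CAC against NCAC at 2 weeks, 0 of 10 factors were called (0.0397% of all genes), at 4 weeks 0 of 10 (0.588%) and at 6 weeks 0 of 10 (7.77%). At 8 weeks 2 of 10 were called in CAC against NCAC (39.3% of all genes), 1 higher (37.3%) and 1 lower (1.98%), and after rescaling 3 of 10 were called (24.4%), 0 higher (12.9%) and 3 lower (11.5%). No factor was called in NCAC against Con, with 0 of 10 at 2 weeks (0% of all genes), 4 weeks (0.00795%), 6 weeks (0%) and 8 weeks (0%), although 943, 2206, 1059 and 466 genes had an unadjusted p under 0.05 in limma's test at those weeks, in that order. At the same unadjusted threshold the factors numbered 0, 1, 0 and 0 of 10 in NCAC against Con at the 4 weeks. These comparisons share samples, so they are not independent of each other.

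**Figure D2:**
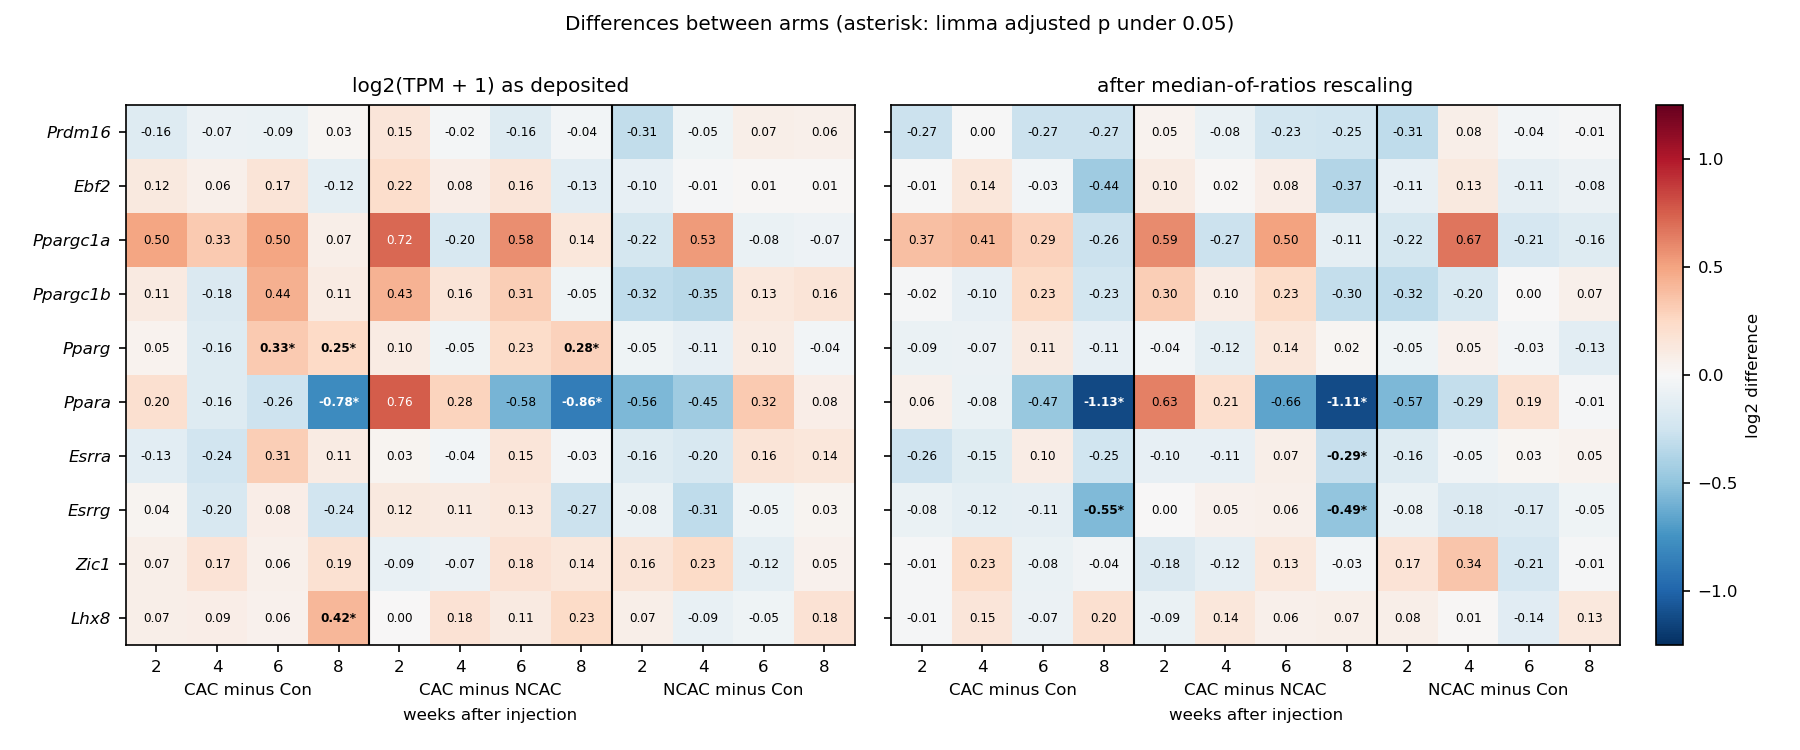
Log2 differences of the 10 factors (rows) between arms at 2, 4, 6 and 8 weeks after injection (columns), on the deposited TPM scale (left) and after median-of-ratios rescaling (right); red is higher and blue lower in the first-named arm, and an asterisk marks an adjusted p under 0.05. Ppara in CAC at 8 weeks is the lowest value against Con on both scales, -0.78 and -1.13, and the NCAC minus Con columns carry no asterisk.

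Ppara fell in CAC at 8 weeks and was lower there than in every library of NCAC. The gene lies at chr15:85734983-85802819 on the plus strand and codes for the fatty acid receptor PPARα. In CAC at 8 weeks its lowest, median and highest values were 18.3, 26.5 and 42.1 TPM. The NCAC libraries of that week had 47.0, 66.7, 42.4, 47.1 and 53.3 TPM, so the ranges did not overlap, as held for 7.21% of all tested genes. The Con libraries had 64.6, 60.0, 41.0, 49.4 and 32.0 TPM and overlapped with CAC. The mean was 28.7 ± 9.40 TPM in CAC, 51.3 ± 9.44 TPM in NCAC and 49.4 ± 13.4 TPM in Con (SD, n = 7, 5 and 5). The log2 difference was -0.86 (SE 0.30, limma adjusted p = 0.0196) against NCAC and -0.78 (SE 0.30, adjusted p = 0.0251) against Con, and rescaling took these to -1.11 (adjusted p = 0.0076) and -1.13 (adjusted p = 0.00614). The call against Con was lost when any of 4 libraries was left out, CAC 1 and 6 and Con 1 and 2, with adjusted p between 0.0515 and 0.0806, and the call against NCAC was lost without NCAC library 2 (adjusted p = 0.0596).

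In CAC, Ppara was lower at 8 weeks than at 2 weeks. Its mean in CAC was 63.7 ± 15.2 TPM at 2 weeks, 51.1 ± 22.1 TPM at 4 weeks, 31.3 ± 14.0 TPM at 6 weeks and 28.7 ± 9.40 TPM at 8 weeks. In NCAC the means at the same weeks were 37.3 ± 10.3, 41.1 ± 20.7, 45.0 ± 11.6 and 51.3 ± 9.44 TPM, and in Con they were 57.7 ± 22.4, 54.6 ± 22.3, 35.6 ± 8.28 and 49.4 ± 13.4 TPM. Within CAC the level at 8 weeks was lower than at 2 weeks by a log2 difference of -1.15 (SE 0.30, limma adjusted p = 0.00467), in a comparison where 1 of 10 factors and 20.5% of all genes were called. That call held whichever of the 12 libraries was left out, with adjusted p from 0.00174 to 0.0196. The 5 CAC libraries of 2 weeks had 73.2, 40.6, 58.0, 67.1 and 79.6 TPM, and 1 of them lay inside the range of 8 weeks. Neither NCAC (0 of 10 factors, 0% of all genes) nor Con (0 of 10 factors, 0.0318% of all genes) had a factor called between 8 and 2 weeks, and at an unadjusted p under 0.05 in limma's test NCAC had 0 and Con had 2 of the 10, Esrra and Ppargc1b. In NCAC 492 genes had such a p.

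The change of Ppara with time differed between CAC and NCAC. The difference between CAC and NCAC was 1.62 lower at 8 weeks than at 2 weeks on the log2 scale (-1.62, SE 0.44, limma adjusted p = 0.0214), and Ppara was the 1 factor of 10 called in that test of the change, beside 5.2% of all genes. After rescaling the value was -1.74 (adjusted p = 0.016), again with 1 of 10 called, beside 6.68% of all genes. At 2 weeks Ppara in CAC stood 0.76 above NCAC on the log2 scale (SE 0.32, adjusted p = 0.329), and the 5 NCAC libraries had 30.5, 27.7, 37.3, 54.3 and 36.6 TPM. That difference at 2 weeks, which was not called on its own, enters the change. Without CAC library 5 of 2 weeks the adjusted p was 0.0501. The change of CAC against Con was not called for any of the 10 factors (11.6% of all genes were), with Ppara at -0.98 (SE 0.44, adjusted p = 0.122). The change of NCAC against Con called 0 of 10 factors and 0% of all genes, with 494 genes and 0 factors at an unadjusted p under 0.05, and Ppara was at 0.64 (SE 0.46, adjusted p = 0.914).

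Some markers of other cells also differed between the arms at 8 weeks, when Ppara was lower in CAC. Of all tested genes 52.1% were higher and 1.97% lower in CAC than in Con as deposited, and 13.5% and 12.8% after rescaling. Against NCAC these shares were 37.3% and 1.98% as deposited, and 12.9% and 11.5% after rescaling. The marker counts below are to be read beside these shares. All 8 macrophage markers were higher in CAC than in Con and than in NCAC, on both scales, and none was at 0 in any library. Their sum ranged from 226.1 to 543.8 TPM in CAC, from 89.2 to 166.7 TPM in NCAC and from 114.2 to 148.5 TPM in Con. Of 7 epithelial markers, 4 were lower in CAC than in Con and 5 lower than in NCAC, on both scales, with sums from 1.08 to 39.2 TPM in CAC, 20.2 to 122.6 TPM in NCAC and 14.7 to 107.9 TPM in Con. Of the 11 skeletal muscle markers none was called at 8 weeks in either comparison, with sums from 600.2 to 2848 TPM in CAC, 846.4 to 6914 TPM in NCAC and 777.3 to 6834 TPM in Con. Of 6 endothelial markers 3 were higher and 1 lower in CAC than in Con as deposited, and 1 higher and 1 lower after rescaling. Of 7 progenitor and fibroblast markers 3 were higher and 0 lower as deposited, and 1 higher and 0 lower after rescaling. Of 2 tested B cell markers 1 was lower as deposited and both after rescaling, and of 4 tested markers of neurons and Schwann cells 0 were called as deposited and 1 was lower after rescaling. Of 4 tested white adipocyte markers 2 were higher in CAC than in Con on both scales, Agt and Wfdc21. Lep was not called (log2 difference -0.84, limma adjusted p = 0.139). The sums were 75.0 to 282.1 TPM in CAC, 17.2 to 57.5 TPM in NCAC and 18.9 to 37.8 TPM in Con. Wfdc21 weighed most in these sums, with a mean of 50.6 TPM over the 62 libraries. Lep averaged 14.2 TPM, Nnat 5.59 TPM and Agt 4.69 TPM. Over the 62 libraries the rescaled Ppara value had a Pearson r of -0.58 with the log2 macrophage sum and 0.48 with the mitochondrial share. With the deposited Ppara value these were -0.46 and 0.27. With the macrophage sum the other factors ranged from -0.52 (Esrrg) to 0.07 (Lhx8) rescaled, and from -0.23 (Esrrg) to 0.39 (Pparg) as deposited. With the mitochondrial share they ranged from -0.19 (Lhx8) to 0.52 (Esrrg) rescaled, and from -0.62 (Pparg) to 0.07 (Esrrg) as deposited. The sum and the share themselves were not rescaled. The part of these markers and of the mitochondrial share in the fall of Ppara was not tested.

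Pparg was higher in CAC late in the course on the deposited scale, and this did not hold after rescaling. The gene lies at chr6:115360951-115490399 on the plus strand. At 6 weeks it had 127.9, 132.2, 119.3, 155.2 and 122.2 TPM in CAC, against 101.4, 92.3, 116.5, 110.5 and 100.6 TPM in Con, and the ranges did not overlap, as held for 15.9% of all genes. The log2 difference was 0.33 (SE 0.11, limma adjusted p = 0.0309) as deposited and 0.11 (adjusted p = 0.571) after rescaling. The call was lost when any of 5 libraries was left out, CAC 2 and 4 and Con 1, 2 and 5, with adjusted p up to 0.111. At 8 weeks the lowest, median and highest values were 108.1, 126.2 and 160.6 TPM in CAC. The NCAC libraries had 108.0, 111.7, 105.7, 101.2 and 100.2 TPM, and the Con libraries had 93.7, 106.7, 103.1, 110.8 and 128.2 TPM. The CAC range overlapped with both, by a small margin with NCAC. The difference was 0.28 (SE 0.10, adjusted p = 0.0265) against NCAC, close to the 0.21 by which the median gene moved, and 0.25 (SE 0.10, adjusted p = 0.0401) against Con, where the median gene moved by 0.28. Rescaled values were 0.02 (adjusted p = 0.88) against NCAC and -0.11 (adjusted p = 0.442) against Con, the last with the sign turned. The call against Con was lost with any of 6 libraries left out, CAC 2, 5 and 6 and Con 1, 2 and 3 (adjusted p up to 0.139), and the call against NCAC with any of 3 libraries left out, CAC 2 and NCAC 4 and 5 (p up to 0.0852 after adjustment), while it was at 0.05 without CAC 5.

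The coactivators PGC-1α and PGC-1β were not called in any comparison between arms. Ppargc1a lies at chr5:51454250-51567726 on the minus strand. Its values in CAC at 8 weeks were 7.09 TPM as the lowest, 21.0 TPM as the median and 47.6 TPM as the highest. The NCAC libraries had 29.7, 8.12, 22.8, 13.7 and 16.4 TPM and the Con libraries 20.5, 9.85, 15.4, 22.6 and 22.7 TPM, so the arms overlapped throughout. The log2 difference at 8 weeks was 0.07 (SE 0.45, limma adjusted p = 0.903) against Con, and such an SE leaves room for a change of either sign. At 6 weeks CAC averaged 30.7 ± 13.6 TPM and Con 22.2 ± 12.6 TPM (log2 difference 0.50, adjusted p = 0.46). Single libraries stood out: at 4 weeks Con held values of 8.99, 40.5, 11.1, 11.3 and 10.4 TPM, with library 2 far above the rest. Ppargc1b averaged 20.7 ± 5.46 TPM in CAC, 21.2 ± 4.21 TPM in NCAC and 18.7 ± 2.67 TPM in Con at 8 weeks. It was lower at 8 than at 2 weeks in CAC by a log2 difference of -0.44 (SE 0.19, adjusted p = 0.0899) as deposited and of -0.52 (adjusted p = 0.0326) after rescaling, where 3 of 10 factors and 24.9% of all genes were called. Without CAC library 5 of 8 weeks the deposited difference was called too (adjusted p = 0.0411). In CAC at 6 weeks Ppargc1b was at 19.4, 33.8, 19.6, 54.2 and 20.1 TPM, with 2 libraries well above the other 3, and the difference against Con was 0.44 (SE 0.20, adjusted p = 0.106). Con had a similar deposited difference between 8 and 2 weeks, -0.43 (SE 0.20, adjusted p = 0.222), and the change of CAC against Con was -0.01 (SE 0.28).

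With all libraries kept, neither estrogen-related receptor was called between arms at 8 weeks as deposited. After rescaling, Esrrg was called in CAC against both other arms and Esrra in CAC against NCAC only. Esrrg, at chr1:187608791-188214885, had a narrow range in CAC at 8 weeks, with 5.24 TPM as the lowest, 6.05 TPM as the median and 6.40 TPM as the highest value. The NCAC libraries had 8.05, 8.51, 8.13, 5.23 and 7.42 TPM, with 4 of 5 above all of CAC, and the Con libraries had 7.12, 6.16, 7.60, 7.91 and 7.34 TPM, also with 4 of 5 above. As deposited the log2 difference was -0.27 (SE 0.14, limma adjusted p = 0.109) against NCAC and -0.24 (SE 0.14, adjusted p = 0.131) against Con. After rescaling it was -0.49 (adjusted p = 0.00994) against NCAC and -0.55 (adjusted p = 0.00367) against Con, both called. Without NCAC library 4, the low one, the deposited difference against NCAC was -0.37 and was called (adjusted p = 0.036). The SD of Esrrg in CAC was 2.44 TPM at 6 weeks, when CAC ranged from 4.76 to 11.1 TPM, and 0.393 TPM at 8 weeks. Within CAC, Esrrg at 8 against 2 weeks was at -0.33 (SE 0.14, adjusted p = 0.0739) as deposited and at -0.40 (adjusted p = 0.0349) after rescaling.

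Esrra, at chr19:6910977-6921813 on the minus strand, had smaller differences. It averaged 87.9 ± 12.1 TPM in CAC, 90.5 ± 17.8 TPM in NCAC and 81.1 ± 4.38 TPM in Con at 8 weeks, with deposited log2 differences of -0.03 (SE 0.125, limma adjusted p = 0.854) against NCAC and 0.11 (SE 0.125, adjusted p = 0.488) against Con. The rescaled values were -0.29 (adjusted p = 0.0427) against NCAC and -0.25 (adjusted p = 0.0863) against Con. Esrra had its highest values in the Con libraries 3 and 4 of 4 weeks that stood apart in mitochondrial share, at 176.9 and 144.7 TPM, against 100.3, 93.1 and 101.8 TPM in the other 3 Con libraries. At 4 weeks CAC minus Con was -0.24 with those libraries and 0.04 without them, and neither was called. Leaving them out also brought Esrra in CAC against Con at 6 weeks under the threshold (log2 difference 0.31, adjusted p = 0.0436, against 0.0852 with them), as did leaving out CAC library 3 or Con library 4 of 6 weeks alone (adjusted p = 0.035 and 0.0417). Across all libraries the deposited Esrra value had a Pearson r of -0.60 with the mitochondrial share and -0.02 after rescaling, while Pparg had -0.62 and 0.17.

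Prdm16 and Ebf2, the factors that set brown identity, were not called in any of the 18 comparisons on either scale. Prdm16 lies at chr4:154316125-154636873 on the minus strand and Ebf2 at chr14:67233292-67430918 on the plus strand. Prdm16 at 8 weeks had a lowest, median and highest value of 1.99, 5.17 and 7.43 TPM in CAC, against 3.97, 4.43 and 5.99 TPM in NCAC and 3.31, 4.55 and 5.42 TPM in Con. CAC thus contained both the lowest and the highest value of that week. Its log2 difference at 8 weeks was 0.03 (SE 0.18, limma adjusted p = 0.912) against Con, and -0.27 after rescaling. Ebf2 averaged 9.17 ± 2.39 TPM in CAC, 10.1 ± 2.64 TPM in NCAC and 9.93 ± 1.89 TPM in Con at 8 weeks, with a deposited difference of -0.12 (SE 0.20, adjusted p = 0.627) against Con and a rescaled one of -0.44. That neither was called does not show that they were unchanged.

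Zic1 and Lhx8, the depot markers, were the members with the lowest levels, where log2(TPM + 1) understates differences. Lhx8 lies at chr3:154306294-154330659 on the minus strand. In CAC at 8 weeks its lowest, median and highest values were 1.09, 1.94 and 3.81 TPM. The NCAC libraries had 1.19, 1.22, 2.88, 1.68 and 1.20 TPM and the Con libraries 1.23, 1.93, 1.14, 0.973 and 1.14 TPM. Most CAC libraries were above most Con libraries, with overlap. The log2 difference against Con was 0.42 (SE 0.16, limma adjusted p = 0.0209), against 0.28 for the median gene, and after rescaling it was 0.20 (adjusted p = 0.317). The call was lost without CAC library 1, the highest, or Con library 4, the lowest, with adjusted p of 0.0803 and 0.0573. Against NCAC the difference was 0.23 (SE 0.16, adjusted p = 0.225), and it was called without NCAC library 3, the highest (adjusted p = 0.0442). Zic1, at chr9:91358058-91365810 on the minus strand, averaged 2.04 ± 0.669 TPM in CAC, 1.73 ± 0.516 TPM in NCAC and 1.61 ± 0.231 TPM in Con at 8 weeks and was called in no comparison.

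**Figure D3:**
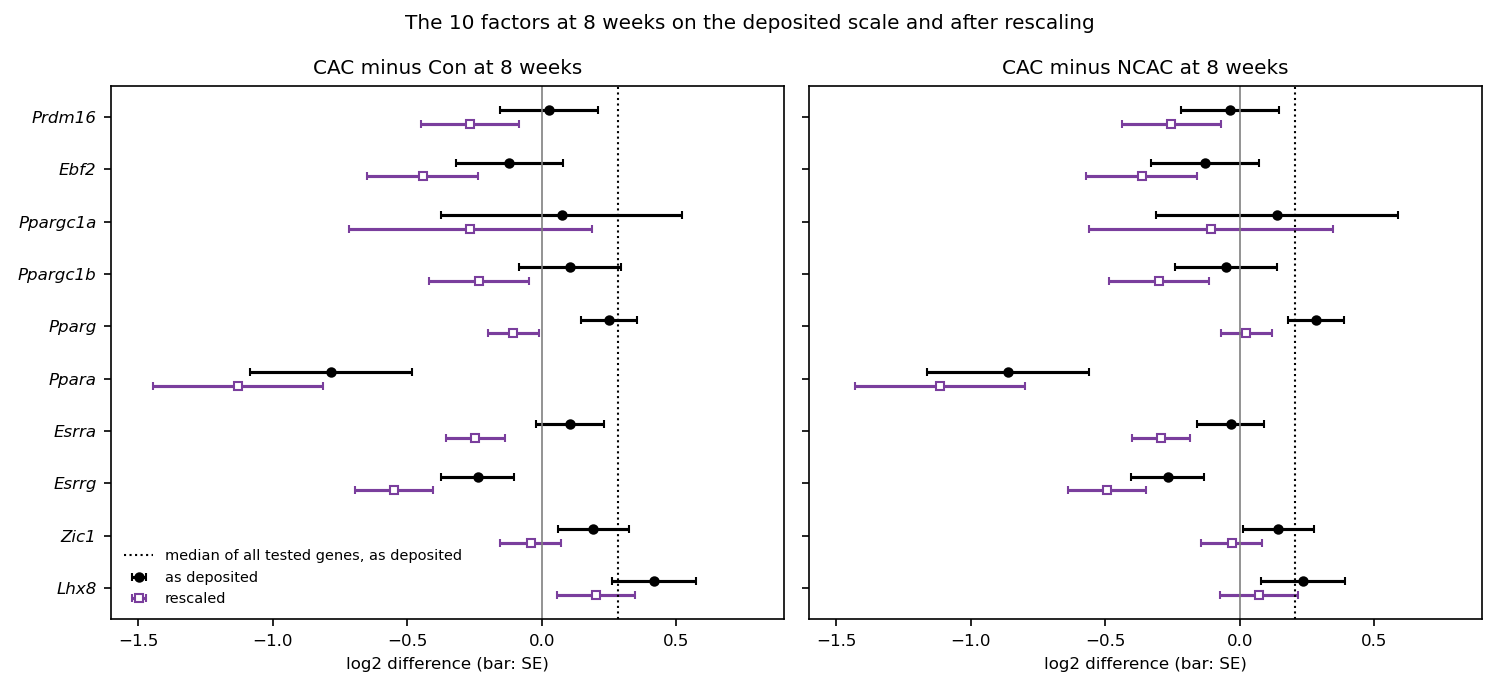
Log2 differences of the 10 factors (rows) at 8 weeks, CAC minus Con on the left and CAC minus NCAC on the right; filled circles are the deposited scale, open squares the rescaled values, bars are the SE and the dotted line is the median of all tested genes as deposited (0.28 and 0.21). Pparg sits near the dotted line in both panels, and Ppara lies far to its left.

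How the factors moved together across the 62 libraries is given as a description, since the libraries share groups and one fixed total. On the rescaled scale the strongest pair was Ppargc1b with Ppara at a Pearson r of 0.59, and it was 0.61 when group means were first taken out. Ebf2 with Ppargc1b had 0.57 and 0.60, and Ebf2 with Ppara had 0.57 and 0.51. Zic1 and Lhx8 moved with each other, at 0.53 and 0.57, and Zic1 moved against Ppara, at -0.44 and -0.48. Ppargc1a, by contrast, was little related to its paralogue Ppargc1b, at 0.20 and 0.28. Among all genes that averaged 5 TPM or more, the 3 most like Ppara over the 62 libraries were Cebpa (0.80), which codes for an adipocyte differentiation factor, Akt2 (0.80), a kinase of insulin signalling, and Akap1 (0.80), a mitochondrial anchor of protein kinase A. Those most like Esrra were Fastk (0.90), Atg4d (0.87) and Gsk3a (0.87), and those most like Ppargc1a were Mapkapk2 (0.74), B4galt1 (0.73) and Ndel1 (0.72). For Ppargc1b they were Actn4 (0.73), Dip2a (0.67) and Snx9 (0.64), and for Ebf2 they were Rarb (0.67), Rnf152 (0.65) and Fastkd1 (0.64). Esrrg was most like mt-Nd1 (0.65), a subunit of complex I encoded by the mitochondrial genome, then Mtx3 (0.64) and Prkar2b (0.63). As deposited these values were 0.38, 0.50 and 0.46, so the closeness to mt-Nd1 depended on the scale. With the mitochondrial share Esrrg had an r of 0.07 as deposited and 0.52 after rescaling. Prdm16 was most like Ucp3 (0.60), a mitochondrial carrier of muscle and brown fat, then Zeb1 and Sipa1l1 (0.55 each). Pparg was most like Zbtb43 (0.61), Cdk13 (0.55) and Wdr20 (0.54), Zic1 was most like Smg5 (0.66), Usp1 (0.60) and Hacd2 (0.58), and Lhx8 was most like Hoxa5 (0.60), a homeobox gene, Sharpin (0.56) and Mpv17l2 (0.54).

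Other transcription factors of brown and beige adipocytes were called at 8 weeks in CAC against Con in 8 of 23 tested genes as deposited, all higher, with a median difference of 0.22 beside 0.28 for all genes. After rescaling 2 were higher and 3 lower. Of all tested genes 52.1% were higher and 1.97% lower as deposited, and 13.5% were higher and 12.8% lower after rescaling, and the counts of each list below are to be read beside these shares. Cebpd, a factor of early adipogenesis that also responds to inflammation, rose most: its lowest, median and highest values were 4.74, 9.41 and 20.1 TPM in CAC and 1.17, 1.54 and 1.74 TPM in Con, without overlap (log2 difference 2.21, limma adjusted p = 2.64e-07; rescaled 1.94). Irf4, a factor that partners PGC-1α in brown fat, had a difference of 1.45 (adjusted p = 0.0172), not called after rescaling, and its CAC range of 8.23 to 355.7 TPM overlapped with 6.51 to 15.2 TPM in Con. Nfia and Mecom, the called genes with the smallest differences, were at 0.24 and 0.21, and after rescaling at -0.10 and -0.01, not called.

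Coregulators of the nuclear receptors and of PRDM16 were called in 16 of 20 genes at 8 weeks in CAC against Con as deposited, 15 higher and 1 lower, and in 1 higher and 1 lower after rescaling, with a median of 0.34 as deposited and 0.01 rescaled, where 54% of all genes were called as deposited and 26.4% after rescaling. Perm1, a muscle and brown fat regulator induced by PGC-1 and the ERRs, fell to 9.43 ± 2.83 TPM in CAC, against 24.0 ± 8.33 TPM in Con, and the ranges of 4.88 to 13.1 TPM and 15.6 to 37.3 TPM did not overlap (log2 difference -1.26, limma adjusted p = 9.09e-05; rescaled -1.59). Lpin1, a phosphatidate phosphatase that can coactivate PPARA with PGC-1α, rose to 288.4 ± 87.0 TPM in CAC, against 151.6 ± 53.3 TPM in Con (0.93, adjusted p = 0.000372; rescaled 0.57, adjusted p = 0.029). Pprc1, the third member of the PGC-1 family, was at 0.49 (adjusted p = 0.0303) and not called after rescaling (0.21), and Kdm1a, a histone demethylase, was at 0.23 and -0.08 rescaled.

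Of 12 tested genes of mitochondrial genome transcription and replication, 6 were higher and 0 lower in CAC at 8 weeks as deposited, and 0 higher and 2 lower after rescaling, beside 52.1% higher and 1.97% lower of all genes as deposited and 12.8% lower after rescaling. The named genes, Ssbp1 (0.33), Yy1 (0.33), Gabpb1 (0.28) and Nrf1 (0.28), were all near the shift of the median gene, and none was called after rescaling (from -0.01 to 0.05).

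Of 15 genes counted as targets of the ERRs and PGC-1, 4 were higher and 0 lower in CAC against Con at 8 weeks as deposited, and 0 higher and 9 lower after rescaling, with a median of -0.25, beside 13.5% of all genes higher and 12.8% lower after rescaling. The named ones, Sdha, Cpt1b and Atp5b, had deposited differences of 0.33, 0.25 and 0.24 and were not called after rescaling. Lower calls in this list were also made in earlier weeks. At 2 weeks 0 of the 15 were called as deposited, where 0.0477% of all genes were lower, and 6 were lower after rescaling, where 0.946% of all genes were lower, with a median of -0.27. At 4 weeks 6 were lower as deposited, beside 3.03% of all genes, and 1 after rescaling, beside 2% of all genes. Without Con libraries 3 and 4 of that week, which stood apart, 0 of the 15 were called at 4 weeks as deposited. At 6 weeks 2 were higher and 0 lower as deposited, beside 20.7% higher and 0.978% lower of all genes. After rescaling 0 were called at 6 weeks, beside 5.36% of all genes higher and 2.93% lower. In CAC against Con at 8 weeks, 4 of 13 tested PPARA targets were higher and 0 lower as deposited. After rescaling 1 was higher and 6 lower, with a median of -0.22. Plin5, a lipid droplet protein, was at 0.67 (limma adjusted p = 5.08e-05) and 0.31 rescaled (adjusted p = 0.0567), and Vnn1 and Fgf21 were at 0.63 and 0.48 and not called after rescaling. Of 17 PPARG targets 9 were higher and 0 lower as deposited, and 6 higher and 4 lower after rescaling, with a median of 0.09. Retn, the adipokine resistin, rose to 322.5 ± 97.3 TPM in CAC, against 110.3 ± 34.7 TPM in Con, without overlap (1.53, adjusted p = 0.000207; rescaled 1.18), and Slc27a1, a fatty acid transporter, to 341.3 ± 123.8 TPM, against 153.9 ± 18.7 TPM (1.07, adjusted p = 0.0011; rescaled 0.71). Lipe and Cd36 were at 0.44 and 0.21 as deposited and at 0.09 and -0.15 rescaled, where they were not called.

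Of 13 tested effector genes of brown adipocytes, 3 were higher and 3 lower in CAC against Con at 8 weeks as deposited, and 1 higher and 5 lower after rescaling, beside the 52.1% higher and 1.97% lower of all genes as deposited and the 13.5% higher and 12.8% lower after rescaling. Ucp1 fell to 3061 ± 1209 TPM in CAC, against 5062 ± 531.8 TPM in Con, with ranges of 1640 to 4659 and 4424 to 5671 TPM that overlapped slightly (log2 difference -0.82, limma adjusted p = 0.00571; rescaled -1.18). Adrb3, the β3-adrenergic receptor, fell to 60.3 ± 34.2 TPM in CAC, against 101.6 ± 40.3 TPM in Con (-0.86, adjusted p = 0.0253; rescaled -1.21). Mpzl2 rose to 103.9 ± 43.4 TPM in CAC, against 43.3 ± 16.6 TPM in Con (1.18, adjusted p = 0.000179; rescaled 0.83), and Cidea, a lipid droplet protein, rose as deposited (0.42, adjusted p = 0.00107) but not after rescaling (0.06). Against NCAC at 8 weeks 7 of 23 other transcription factors were higher and 0 lower in CAC as deposited, and 2 were higher and 2 lower after rescaling. Of the 15 ERR and PGC-1 targets 2 were higher and 0 lower as deposited, and 0 higher and 5 lower after rescaling. Of all genes 37.3% were higher and 1.98% lower than in NCAC as deposited, and 12.9% higher and 11.5% lower after rescaling. In NCAC against Con at 8 weeks no gene of the 7 lists was called. The macrophage sums given above moved with these groups too, and their part was not tested.

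**Figure D4:**
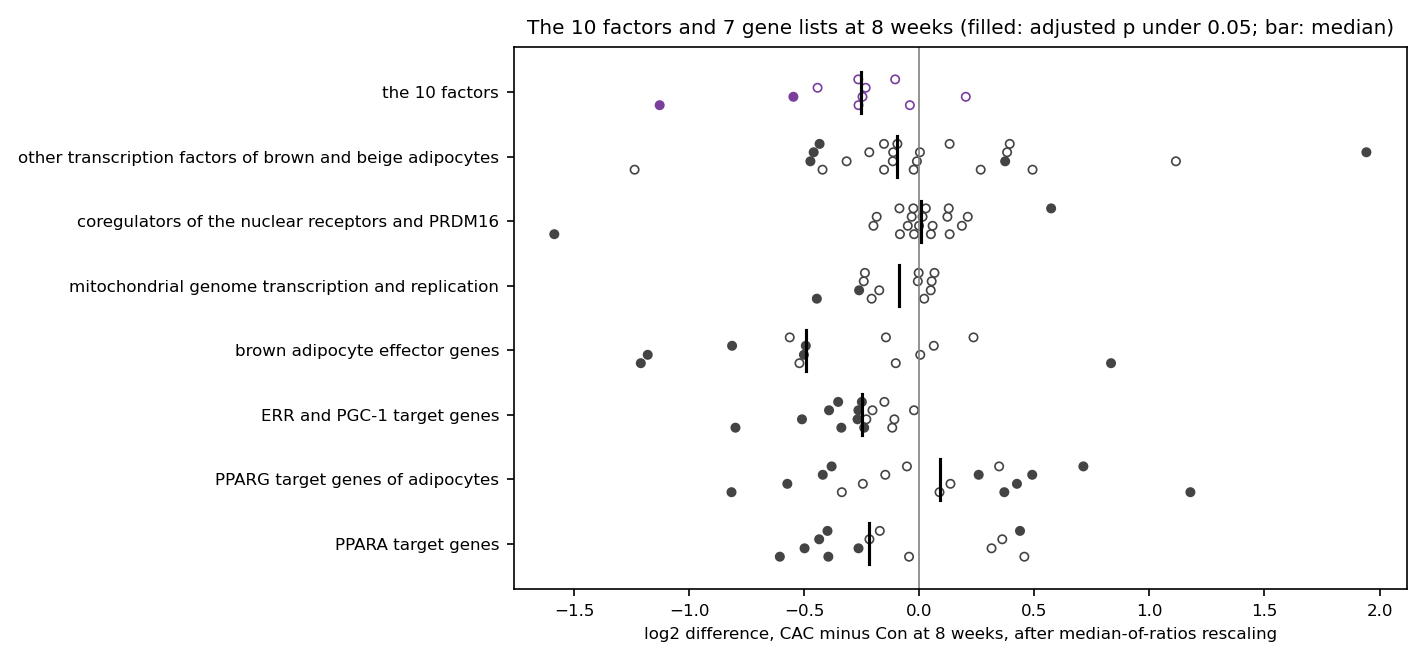
Log2 difference, CAC minus Con at 8 weeks after median-of-ratios rescaling (horizontal axis), for the 10 factors in purple and for the genes of 7 lists in grey (rows); filled points have an adjusted p under 0.05 and the bar is the median. The median of the ERR and PGC-1 targets is -0.25 with 9 filled points, all below 0, and that of the PPARG targets is 0.09 with filled points on both sides.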

How the data were processed

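Total RNA of brown adipose tissue was extracted with Trizol, and stranded mRNA libraries were sequenced on an Illumina NovaSeq platform, per the labels' protocols. The authors deposited TPM per gene symbol for all 62 libraries in a table whose columns sum to 1000000. The build is mm10 per the submitters' processing notes, and the aligner and annotation are not given in the sources used here. Groups came from the sample labels, which call the samples biological replicates without saying more of their origin, so p-values measure the spread between these samples. A CAC and a Con library of 4 weeks carry the same sample number in their titles, and both were kept in the group their labels give. Genes had to reach 1 TPM in 5 or more libraries, log2(TPM + 1) was fitted over all 12 groups with limma 3.58.1 in R 4.3.3, and p-values were adjusted by Benjamini-Hochberg over 12581 genes, with calls at 0.05. Fold changes on this scale understate those of low genes. Tables and figures used Python 3.11.15, pandas 2.3.3, numpy 2.4.6, scipy 1.17.1 and matplotlib 3.10.9. The fit was tested on simulated data. Alternatives were median-of-ratios rescaling, quantile normalization, a pseudocount of 0.1, no filter, a filter at 5 TPM, only the groups compared, library weights, a replicate block and leaving out each library. The members and gene lists were chosen with earlier results of these data known. The text names all 10 members, from each list the called genes with the 2 highest and 2 lowest log2 differences for CAC against Con at 8 weeks, and per member the 3 genes with the highest Pearson r among those averaging 5 TPM or more, predicted genes left out. Some genes that this rule picks are not reported here. Gene positions are from GENCODE M21 on mm10, and promoters are from RefSeq.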

Additional observations from a re-analysis of the deposited data

Results flagged for a closer look

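In 6 of 120 groups of 1 factor, 1 library lay far from the others of its group by Dixon's test, and chance marks about 1 in 20 groups. Prdm16 was at 6.03 TPM in Con library 5 of 2 weeks, against 4.47 to 4.91 TPM in the other Con libraries. Ppargc1a was at 40.5 TPM in Con library 2 of 4 weeks, against 8.99 to 11.3 TPM in the others. Esrra was at 83.7 TPM in CAC library 3 of 6 weeks, against 112.4 to 118.3 TPM, and at 136.6 TPM in NCAC library 4 of 6 weeks, against 82.8 to 95.5 TPM. Zic1 was at 2.61 TPM in NCAC library 3 of 8 weeks, against 1.27 to 1.64 TPM, and Lhx8 at 1.93 TPM in Con library 2 of 8 weeks, against 0.973 to 1.23 TPM. The change of Ppara between 2 and 8 weeks differed between CAC and NCAC in a test of the difference itself, by -1.62 on the log2 scale (limma adjusted p = 0.0214).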

How the results depend on the processing

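Under median-of-ratios rescaling the factors called numbered 0 in CAC against Con at 6 weeks and 3 in CAC at 8 against 2 weeks, beside 8.28% and 24.9% of all genes, and quantile normalization gave the same counts, beside 8.47% and 25.7%. Pparg in CAC against Con at 8 weeks turned to -0.11 under the first and -0.12 under the second. Library weights gave 2 in CAC against Con at 6 weeks, 1 in CAC against NCAC at 6 weeks, 2 in Con at 8 against 2 weeks and 1 in the change of CAC against Con, beside 30.4%, 19.4%, 32.3% and 39.7% of all genes. Fitting only the groups compared gave 1 in CAC against NCAC at 8 weeks, 2 in CAC at 8 against 2 weeks and 2 in Con at 8 against 2 weeks, beside 21.7%, 9.3% and 10.3% of all genes. Without Con libraries 3 and 4 of 4 weeks, an alternative chosen after seeing the data, 2 were called in CAC against Con at 6 weeks, beside 27% of all genes. The cause of these changes was not tested. Leaving out each library in turn gave 0 to 2 called factors in CAC against Con at 6 weeks, 1 to 3 at 8 weeks, 1 to 3 in CAC against NCAC at 8 weeks, 1 to 2 in CAC at 8 against 2 weeks and 0 to 1 in the change of CAC against NCAC, and the other 13 comparisons stayed at 0. Fitting only the groups compared also ended the calls of Pparg (limma adjusted p = 0.0741) and Lhx8 (0.0642) in CAC against Con at 8 weeks, and made one of Esrrg there (0.0345). No filter ended the call of Pparg in CAC against Con at 8 weeks (limma adjusted p = 0.0545). The filter at 5 TPM gave no value for Zic1 and Lhx8, and its 144 values kept their direction and side of the threshold. The replicate numbers did not pair the samples: 16 of 60 same-numbered pairs had a correlation of deviations over 0.1, 12 of 60 libraries correlated best with their own number, and 0 of 12 comparisons had every pair over 0.1. With the numbers as a replicate block 1 factor was called in CAC against Con at 8 weeks (Lhx8), 1 in CAC against NCAC at 8 weeks (Pparg) and 0 in the change of CAC against NCAC, beside 46.2%, 29.7% and 3.26% of all genes. Ppara was at -0.69 (limma adjusted p = 0.0861), -0.77 (0.0758) and -1.53 (0.0623) in these comparisons, and Pparg at 0.25 (0.0532) in the first. Numbers 6 and 7 occur only in CAC at 8 weeks, so the block also took those 2 libraries out of these estimates. The block values therefore do not show the effect of blocking alone. TPM keep no depth, so no counting limit can be set for the low factors Zic1 and Lhx8.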
